A study of Homo sapiens with 19 samples.

Results

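The RNAs described here are 10 mRNAs encoded by mitochondrial DNA: MT-ND1, MT-ND2, MT-ND3, MT-ND4 and MT-ND5 of complex I, MT-CYB of complex III, MT-CO1, MT-CO2 and MT-CO3 of complex IV, and MT-ATP6 of the ATP synthase. They were taken by gene name from a list of 10 genes, and all 10 were found, each as 1 transcript, among the 256980 transcripts of the rRNA-depleted RNA-seq. SH-SY5Y cells, a human neuroblastoma line, were left untreated or received 500 μM sodium arsenite (AS) for 1 h, the dose given in the labels, with 1 library per condition. The study also holds eCLIP of G3BP1 and G3BP2, RNA-seq after siCtrl, siG3BP1 or siG3BP2, and RNA-seq of stress granule (SG) cores and lysate (Total) of AS-treated cells. The tables used here for those libraries had a row for 0 of the 10 genes, so the mitochondrial mRNAs were not analysed here in SG, in the knockdowns or in eCLIP.

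Mitochondrial DNA is a small circle that is transcribed on both strands into long precursors, which are cut at the tRNAs that lie between most genes. The mRNAs released in this way are polyadenylated and translated by mitochondrial ribosomes inside the organelle, and their products are subunits of the respiratory chain and the ATP synthase. They are thus separated by membranes from the cytoplasm in which SGs form. Arsenite reacts with thiol groups of proteins and inhibits lipoate-dependent enzymes of the mitochondrial matrix.

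All 10 genes lie on the plus strand of the mitochondrial chromosome of GRCh38 (16569 bp), from MT-ND1 at chrM:3307-4262 to MT-CYB at chrM:14747-15887. The reference sequences of their 3′ ends are shown because they show a feature of mitochondrial mRNAs. In 6 of the 10 the coding sequence ends with T or TA, and the stop codon is completed by the first adenines of the poly(A) tail, while 4 have a complete stop. The bases of the stop are in capitals in the last 24 bases of each annotated transcript.
MT-ND1: ctccagcattccccctcaaaccTA
MT-ND2: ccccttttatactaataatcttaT
MT-ND3: aaaaaggattagactgaaccgaaT
MT-ND4: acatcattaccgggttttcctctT
MT-CO3: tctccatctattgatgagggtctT
MT-CYB: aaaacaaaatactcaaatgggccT
MT-CO1: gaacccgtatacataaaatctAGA
MT-CO2: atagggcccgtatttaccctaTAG
MT-ATP6: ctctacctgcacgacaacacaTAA
MT-ND5: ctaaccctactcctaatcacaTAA

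Of the 3 mitochondrial mRNAs outside the list, MT-ATP8 and MT-ND4L share a mature mRNA with a member. MT-ATP8 overlaps MT-ATP6 by 46 nt and MT-ND4L overlaps MT-ND4 by 7 nt, and MT-ATP6 shares 1 base with MT-CO3. The stretches that join these reading frames are shown because a read from them can belong to either gene. At chrM:10749-10778 the 7 bases in capitals hold the start of MT-ND4 and the stop of MT-ND4L. At chrM:8515-8544 the capitals are the start codon of MT-ATP6 inside MT-ATP8, and at chrM:9193-9222 the capital is the base shared by MT-ATP6 and MT-CO3.
MT-ND4L and MT-ND4: aacctactccaATGCTAAaactaatcgtcc
MT-ATP8 and MT-ATP6: ctgagaaccaaaATGaacgaaaatctgttc
MT-ATP6 and MT-CO3: cacgacaacacataAtgacccaccaatcac

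The members also share a base content. The members were poor in G, with 9.50% in MT-ND2 to 16.2% in MT-CO1 (median 11.2%), and rich in C, with 29.5% in MT-ND3 to 36.0% in MT-ND1 (median 33.6%). Over 96575 transcripts above 1 RPKM in a library, the medians were 25.3% G and 23.9% C. The minus-strand mRNA MT-ND6 had the opposite content, with 35.6% G and 7.05% C. In G content every member lay at or below percentile 0.310 of those transcripts, the place of MT-CO1.

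**Figure D1:**
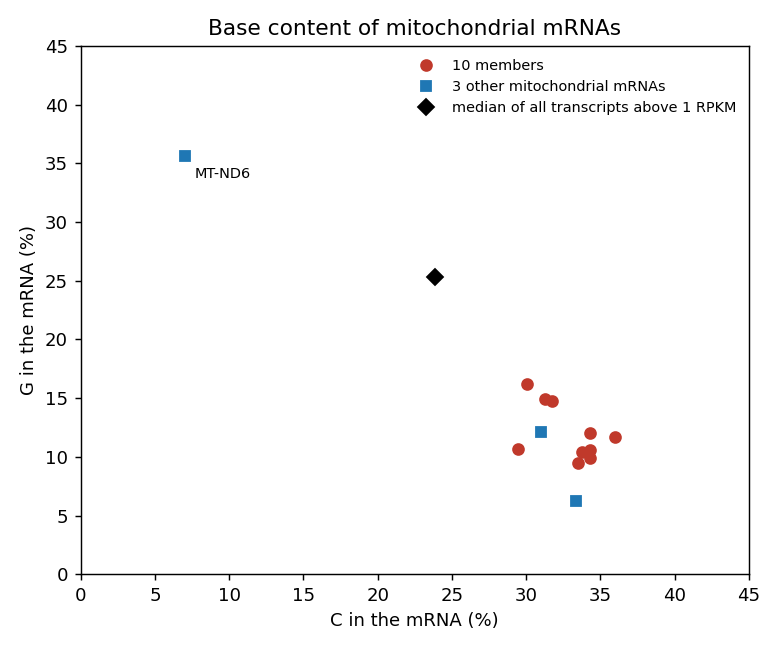
Percentage of C (x axis) and of G (y axis) in each of the 13 mitochondrial mRNAs of GENCODE, with circles for the 10 members, squares for the 3 others and a diamond for the median of all transcripts above 1 RPKM. The members sit together at 29.5% to 36.0% C and 9.50% to 16.2% G, and MT-ND6 lies apart at 7.05% C and 35.6% G.

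The values of the rRNA-depleted table are RPKM, the reads of a transcript scaled by its length and by the number of reads of the library, although the columns are headed TPM. The reads behind each value were recovered from it. The denominators of the RPKM were 13291958 reads (untreated) and 11281587 reads (AS), and the members had 3193 to 107309 reads each. Whether the denominator counts all reads, mapped reads or pairs is not given in the sources used here. Errors are 95% exact Poisson intervals of the reads, and those of ratios are exact binomial intervals. They cover counting error only, because each condition had 1 library and there is no replicate check. For the same reason no p-value is given. The neuroblastoma markers used to check the label (PHOX2A, HAND2, GATA2, GATA3, ISL1, DBH, CHGA and CHGB) were above 1 RPKM in 8 of 8 genes in both libraries. Of the markers of other cells (PTPRC, EPCAM, COL1A1 and ALB), the highest was at 0.980 RPKM in untreated and 1.00 RPKM in AS-treated cells.

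The mitochondrial mRNAs were among the most abundant transcripts of both libraries. In untreated cells 9 of the 10 were among the 20 highest RPKM of the table, and the lowest, MT-ND3, ranked 33. In AS-treated cells 8 were among the 20 highest and MT-ND3 ranked 46. Together the members took 445897 reads, 3.35% of the RPKM denominator of the untreated library (95% Wilson interval 3.34 to 3.36), and 415844 reads, 3.69% of that of the AS library (3.68 to 3.70). As a share of the summed RPKM of all transcripts, which weights reads by transcript length and counts reads in overlapping transcripts repeatedly, they went the other way, from 3.10% to 2.85%. As a share of the reads summed over all transcripts, which also repeats reads, they went from 1.91% to 1.78%, so the direction of the share depended on the denominator.

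The complex IV subunits, which form the core of cytochrome c oxidase, had the highest mean level of the complexes in both libraries. MT-CO1, the catalytic subunit that holds the heme groups, was at 5063 RPKM in untreated cells (5032 to 5094) and 6169 RPKM under AS (6132 to 6206). MT-CO2, which carries a copper centre that takes electrons from cytochrome c, was at 4144 RPKM (4103 to 4186) and 4628 RPKM (4580.1 to 4676). MT-CO3 was at 4639 RPKM (4597.5 to 4680.3) and 4776 RPKM (4730.2 to 4821). The mean of the 3 genes was 4615 RPKM untreated and 5191 RPKM under AS, and all 3 were higher in the AS library on this scale.

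The complex I subunits, membrane proteins of the NADH dehydrogenase that take part in proton pumping, covered a wider range. MT-ND1 was at 4610.5 RPKM in untreated cells (4573 to 4648) and 4412 RPKM under AS (4372 to 4452). MT-ND4 was at 3584 RPKM (3556 to 3611) and 4561 RPKM (4528 to 4595). In untreated cells MT-ND1 was thus the higher of the pair, and under AS MT-ND4 was. MT-ND2 was at 2413 RPKM (2387 to 2439) and 2156 RPKM (2129 to 2182). MT-ND5, the longest of the mRNAs at 1812 nt, was at 1237 RPKM (1223 to 1252) and 1169 RPKM (1155 to 1184). MT-ND3, the shortest of the members at 346 nt, was at 918 RPKM (890.1 to 946) and 818 RPKM (789.9 to 847). These last 3 were lower in the AS library, as was MT-ND1.

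MT-CYB, cytochrome b of complex III, was at 2171 RPKM in untreated cells (2147 to 2194) and 2566 RPKM under AS (2538 to 2594). MT-ATP6, the subunit of the ATP synthase that forms the proton path beside the rotor, was at 3482 RPKM (3443 to 3520.3) and 3466 RPKM (3424 to 3508), with intervals that overlapped.

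**Figure D2:**
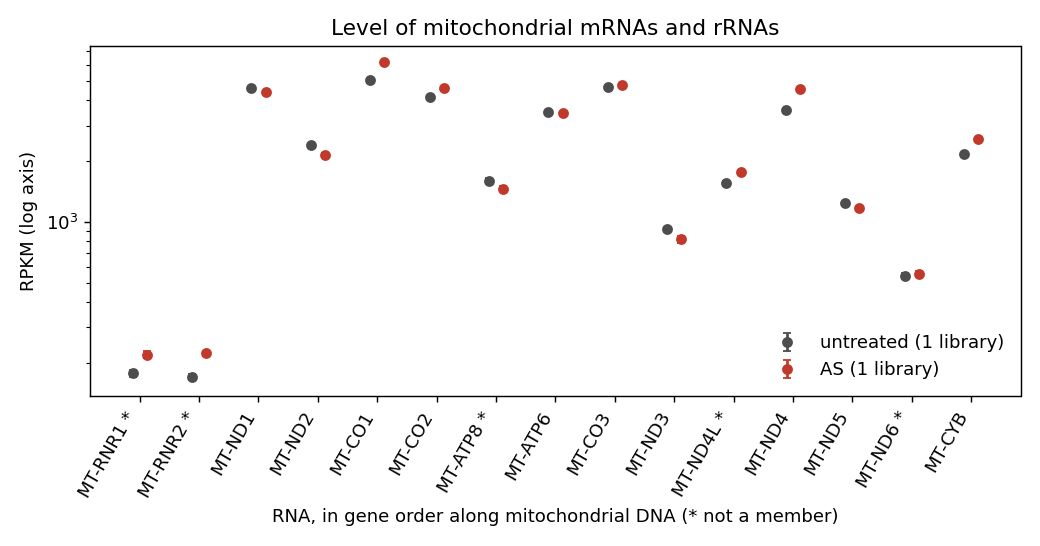
RPKM (log axis) of the 13 mitochondrial mRNAs and the 2 rRNAs in gene order along mitochondrial DNA, with 1 grey point for the untreated library and 1 red point for the AS library, bars for 95% Poisson intervals, mostly smaller than the points, and asterisks for RNAs that are not members. MT-CO1 is the highest in both libraries (5063 and 6169 RPKM), and the members span 918 to 5063 RPKM untreated and 818 to 6169 RPKM under AS.

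The order of the levels in untreated cells was MT-CO1, MT-CO3, MT-ND1, MT-CO2, MT-ND4, MT-ATP6, MT-ND2, MT-CYB, MT-ND5 and MT-ND3. MT-CO3 and MT-ND1 differed by less than their counting intervals, at a ratio of 1.01, and the other neighbours did not overlap. Under AS the order was MT-CO1, MT-CO3, MT-CO2, MT-ND4, MT-ND1, MT-ATP6, MT-CYB, MT-ND2, MT-ND5 and MT-ND3, and only MT-CO2 and MT-ND4 overlapped, at a ratio of 1.01. MT-CYB and MT-ND2 exchanged places. The highest level was 5.52 times the lowest in untreated cells and 7.54 times under AS.

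The levels did not follow the position of the genes along the precursor: MT-ND1 and MT-CYB, the first and the last, were at 4610.5 and 2171 RPKM, and the neighbours MT-CO3 and MT-ND3 at 4639 and 918 RPKM. Reading frames of a shared mRNA also differed. MT-ATP8 (207 nt) had 1596 RPKM in untreated and 1455 RPKM in AS-treated cells, 0.458 (0.444 to 0.473) and 0.420 (0.405 to 0.435) of the RPKM of MT-ATP6. MT-ND4L (297 nt) had 1561 and 1764 RPKM, 0.436 (0.424 to 0.447) and 0.387 (0.376 to 0.397) of MT-ND4. Within both pairs the shorter frame had the lower RPKM in both libraries. Over the 13 mRNAs, which come from the same libraries, Pearson's r between length and untreated RPKM was 0.33 and Spearman's rho 0.41, and over the 10 members 0.02 and 0.10. The minus-strand mRNA MT-ND6 had 540.1 and 554 RPKM. Whether the counting used strand is not given in the sources used here, and without strand these reads cannot be told apart from those of the plus-strand precursor.

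The rRNA-depleted libraries were next compared to ask whether the mitochondrial mRNAs changed with AS. A transcript was called changed when the ratio of RPKM + 1 was above 2 or below 0.5 with more than 1 RPKM in the higher library. None of the 10 members was called. Their ratios all lay within 1.5-fold either way, a range for which the share of all transcripts was not computed. Of the 100705 transcripts above 1 RPKM, 1.51% were called higher and 0.470% lower, 1.98% in either direction. Among the 10034 transcripts with at least 1000 reads in both libraries together, a depth closer to that of the members, 0.359% were called. At these shares, 0 of 10 called is not particular to the members.

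The differences below that threshold were larger than the counting error for 9 of the 10 members. The ratio of AS to untreated RPKM was 1.27 for MT-ND4 (1.26 to 1.29), 1.22 for MT-CO1 (1.21 to 1.23), 1.18 for MT-CYB (1.16 to 1.20), 1.12 for MT-CO2 (1.10 to 1.13) and 1.03 for MT-CO3 (1.02 to 1.04). It was 0.995 for MT-ATP6 (0.979 to 1.01), whose interval held 1. It was 0.957 for MT-ND1 (0.945 to 0.969), 0.945 for MT-ND5 (0.929 to 0.961), 0.893 for MT-ND2 (0.879 to 0.908) and 0.891 for MT-ND3 (0.851 to 0.934). On this scale 5 members were above 1 and 5 below, where 78.9% of the transcripts above 1 RPKM were above 1 and 21.1% below. Whether such differences exceed the spread between cultures cannot be told from 1 library per condition.

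**Figure D3:**
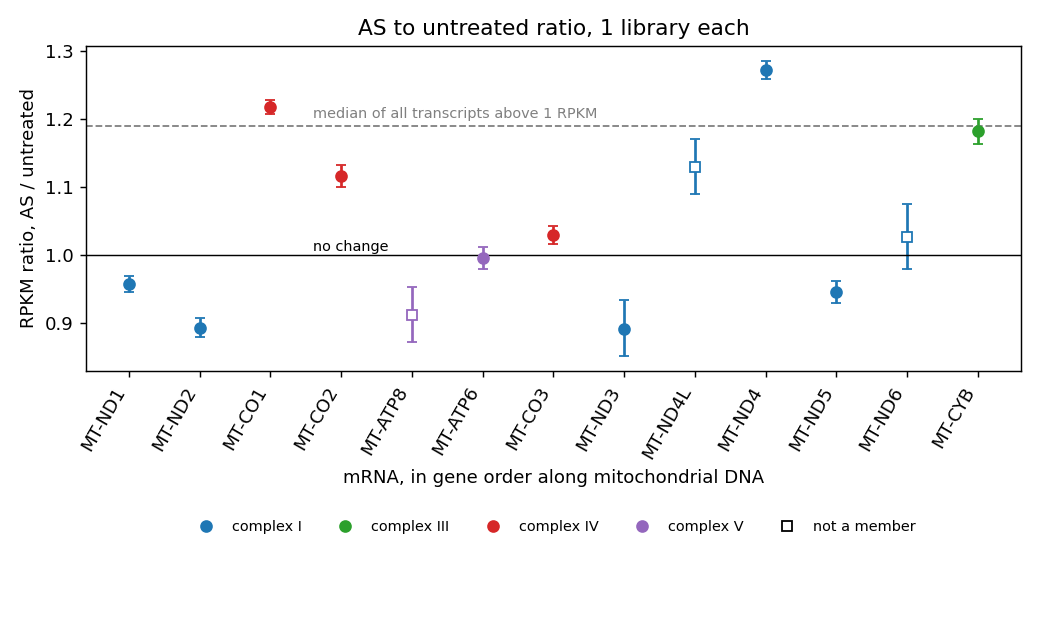
Ratio of AS to untreated RPKM (y axis) of the 13 mitochondrial mRNAs in gene order, coloured by complex, with filled circles for members, open squares for the others and bars for 95% binomial intervals of the reads. The solid line marks a ratio of 1 and the dashed line the median of all transcripts above 1 RPKM in both libraries, 1.19, and MT-ND4 (1.27) and MT-CO1 (1.22) lie above it while MT-ND2 (0.893) and MT-ND3 (0.891) are the lowest.

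Most other transcripts had a ratio above 1 on the deposited scale. The median over 88770 transcripts above 1 RPKM in both libraries was 1.19, a shift of 0.25 on the log2 scale, and it was 1.16 over the transcripts with at least 1000 reads (quartiles 1.09 and 1.26). Of the latter, 90.0% were above 1 and 10.0% below, against 5 of 10 members on each side. Among 218 transcripts outside mitochondrial DNA with at least 10000 reads, which include several transcripts of the same genes, the median was 1.12 and 13.3% were below 1. The members' median was 1.01. Of the members, 6 had a ratio below the first quartile of the transcripts with at least 1000 reads and 3 were above their median: MT-ND3 lay at percentile 2.06, MT-ND2 at 2.15, MT-ND5 at 4.60, MT-ND1 at 5.43, MT-ATP6 at 9.55 and MT-CO3 at 13.6, while MT-CO2 was at 33.5, MT-CYB at 55.6, MT-CO1 at 66.1 and MT-ND4 at 77.8. All these sets of transcripts hold overlapping transcripts of the same genes, in which reads are counted repeatedly. The percentages and positions are thus a description of the libraries and not of independent genes.

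**Figure D4:**
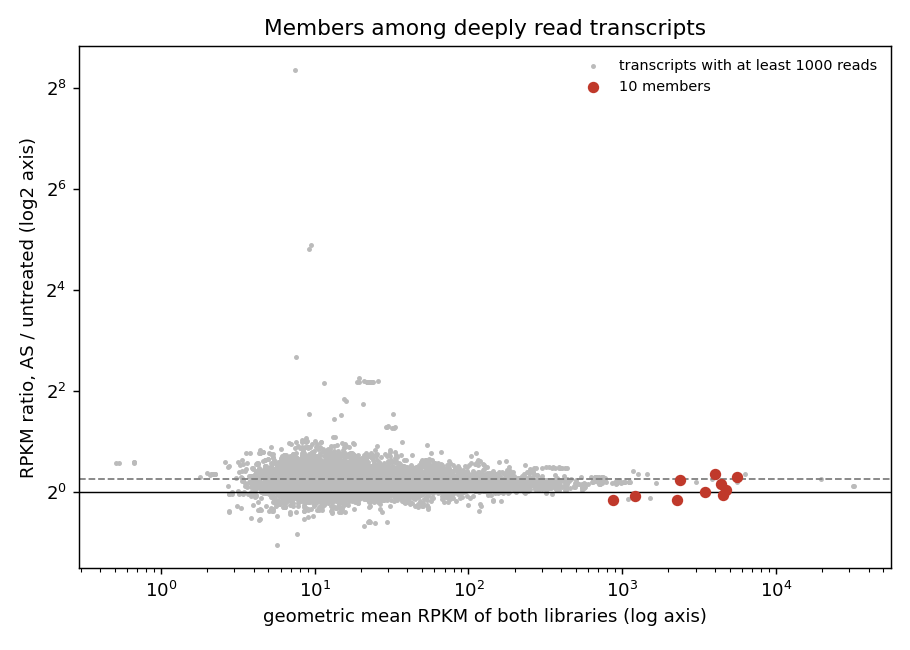
Ratio of AS to untreated RPKM (log2 axis) against the geometric mean RPKM of both libraries (log axis) for transcripts with at least 1000 reads in grey and the 10 members in red, with a solid line at 1 and a dashed line at the median of all transcripts above 1 RPKM, 1.19. The members lie at the high end of the abundance range, between ratios of 0.891 and 1.27, and 5 of the 10 are below the solid line.

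For 3 of the 10 members, the direction therefore depended on what the libraries were scaled to. The denominators of the deposited RPKM differ by a factor of 1.18, whereas the recovered reads summed over all transcripts were 23301040 in the untreated and 23353992 in the AS library. With the median ratio of transcripts above 1 RPKM set to 1, MT-ND4 was at 1.07, MT-CO1 at 1.02, MT-CYB at 0.993 and MT-CO2 at 0.938, and MT-CO3 at 0.865. MT-ATP6 was then at 0.837, MT-ND1 at 0.804, MT-ND5 at 0.794, MT-ND2 at 0.751 and MT-ND3 at 0.749. On that scale 2 members were above 1 and 8 below, and 41.4% of the transcripts with at least 1000 reads were above 1. With the same RPKM total, 3 members and 48.3% of those transcripts were above 1. MT-CO1 and MT-ND4 were above 1, and MT-ND1, MT-ND2, MT-ND3, MT-ND5 and MT-ATP6 below 1, on the deposited scale and under all 5 other scalings. MT-CO2, MT-CO3 and MT-CYB changed side.

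The balance among the members does not depend on scaling. The highest ratio was 1.43 times the lowest. MT-CO1 went from 15.7% to 17.8% of the members' summed RPKM and MT-ND4 from 11.1% to 13.1%, as point values of 1 library each. MT-ND1 went from 14.3% to 12.7% and MT-ND2 from 7.48% to 6.21%. Within complex I, the ratio of MT-ND4 to MT-ND2 was 1.485 in untreated (1.465 to 1.505) and 2.12 in AS-treated cells (2.09 to 2.15), and that of MT-ND4 to MT-ND1 was 0.777 (0.769 to 0.786) and 1.03 (1.02 to 1.05). Within complex IV, the ratio of MT-CO1 to MT-CO3 was 1.09 (1.08 to 1.10) and 1.29 (1.28 to 1.31). By complex, the members of complex IV held 42.9% of the sum in untreated and 44.9% in AS-treated cells, those of complex I 39.6% and 37.8%, MT-ATP6 10.8% and 9.98%, and MT-CYB 6.73% and 7.39%.

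Shared mRNAs give a measure of how far a pair of readings of the same molecule can differ. From untreated to AS-treated cells, the ratio of MT-ATP8 to MT-ATP6 changed by a factor of 0.916 and that of MT-ND4L to MT-ND4 by 0.888, beyond the counting intervals of both pairs. MT-ND4L had an AS to untreated ratio of 1.13 (1.09 to 1.17) beside 1.27 for MT-ND4, and MT-ATP8 one of 0.912 (0.871 to 0.954) beside 0.995 for MT-ATP6. Readings of a shared mRNA thus differed by more than their counting intervals, and the source of this difference was not tested. MT-ND6 had a ratio of 1.03 (0.979 to 1.08).

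The median ratio of the members was higher in the longer length classes, but each class held few members and the longest class held low ratios too. Across the 10 members, Pearson's r of the AS to untreated ratio was 0.38 with transcript length (Spearman's rho 0.39) and 0.29 with the position of the gene (0.19), as descriptions over RNAs of the same libraries. MT-ND5, the longest, had 0.945 and the next in length, MT-CO1, 1.22. MT-ND2, also above 1000 nt, had 0.893. Over the transcripts with at least 1000 reads, the median ratio was 1.12 below 500 nt, 1.14 from 500 to 1000 nt, 1.16 from 1000 to 2000 nt and 1.17 above. Over the same transcripts, Pearson's r of the ratio with length was -0.005 and Spearman's rho 0.04. The members' ratio was 0.891 for the 1 below 500 nt, and their median was 1.01 for the 4 from 500 to 1000 nt and 1.18 for the 5 from 1000 to 2000 nt. With the untreated RPKM, which is also the denominator of the ratio, Pearson's r was 0.46 and Spearman's rho 0.56. Members with a stop completed by adenylation had ratios from 0.891 to 1.27 and those with a complete stop from 0.945 to 1.22.

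Copies of mitochondrial DNA in the nuclear genome can exchange reads with the members. Of 335 annotated copies of the 10 genes compared, 246 had 0 reads in both libraries and 3 had more than 100. All 3 lie in a stretch of chromosome 1 that holds copies of 6 members at 96.8% to 98.6% identity (GRCh38, plus strand). MTATP6P1 (chr1:633696-634376) had 1153 RPKM in untreated and 1039.9 RPKM in AS-treated cells, and the untreated value was 33.1% of that of MT-ATP6. MTND2P28 (chr1:629640-630683) had 133 and 109 RPKM, 5.50% and 5.06% of MT-ND2, and MTCO1P12 (chr1:631074-632616) had 10.5 and 9.71 RPKM. The copies of MT-ND1, MT-CO2 and MT-CO3 in the same stretch had 7, 4 and 2 reads in untreated cells.

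MTATP6P1 differs from MT-ATP6 at 10 of 681 positions, and every 150-base window of MT-ATP6 holds at least 1 of them. Part of both reference sequences is shown, with the differing bases in capitals, because this is the copy with the most reads. The stretches are chrM:8648-8677 and chr1:633817-633846, and the differences are C129T and A151C, counted from 1 at the first base of MT-ATP6, with the base of MT-ATP6 first.
MT-ATP6: gactaatCaccacccaacaatgactaatcA
MTATP6P1: gactaatTaccacccaacaatgactaatcC

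The AS to untreated ratio was 0.902 for MTATP6P1 (0.876 to 0.928) and 0.821 for MTND2P28 (0.764 to 0.882), below those of MT-ATP6 (0.995) and MT-ND2 (0.893). With the reads of all copies added, MT-ATP6 had a ratio of 0.972 (0.958 to 0.986), which no longer held 1, and MT-ND2 one of 0.889 (0.875 to 0.904). For the other 8 members the copies added 0 to 302 reads in the untreated library. Whether these reads arose from nuclear or mitochondrial DNA was not tested.

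**Figure D5:**
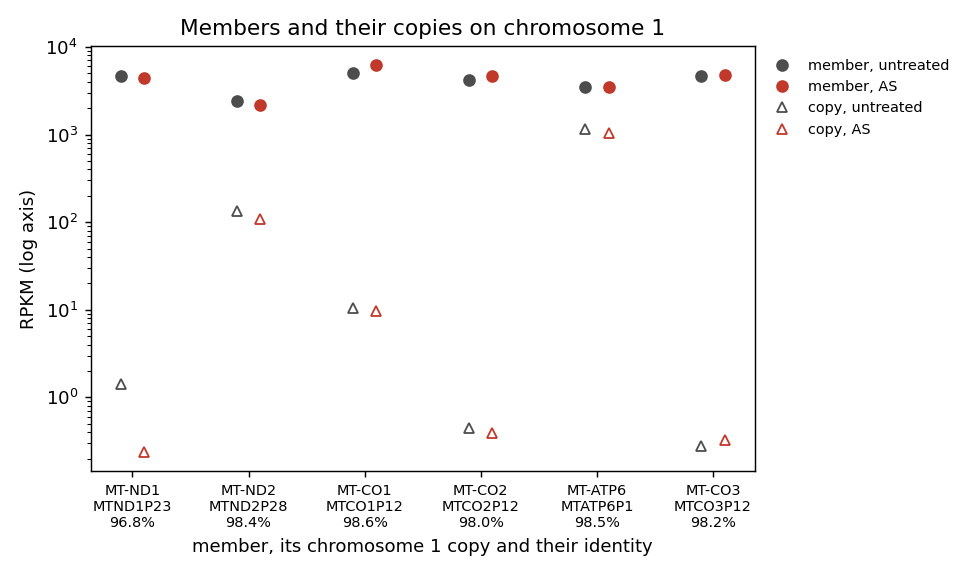
RPKM (log axis) of 6 members (filled circles) and of their copies on chromosome 1 (open triangles), with grey for the untreated and red for the AS library, 1 library each, and the identity of each pair under the axis. MTATP6P1 reaches 1153 and 1039.9 RPKM beside 3482 and 3466 RPKM for MT-ATP6, while the copies of MT-CO2 and MT-CO3 stay below 1 RPKM at 98.0% and 98.2% identity.

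The rRNAs of mitochondrial DNA were read at lower levels than its mRNAs, and 0 was listed for its tRNAs. The small and large rRNAs, MT-RNR1 and MT-RNR2, which the rRNA-depleted libraries retained in part, had 177 and 171 RPKM in untreated and 220 and 223 RPKM in AS-treated cells, with ratios of 1.24 (1.17 to 1.31) and 1.31 (1.25 to 1.37). All 22 mitochondrial tRNAs (59 to 75 nt) were listed at 0 in both libraries. A count of 0 allows up to 3 reads in a library. The study's methods give reads longer than these tRNAs, so whether the libraries could hold them is not known, and 0 is not a measure of tRNA level. The rRNA values also depend on how far depletion went in each library, which was not tested.

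The nuclear partners of the members in the same complexes were compared in the same libraries, with the protein-coding transcript of most reads for each gene. Reads were recovered only for the 88.5% of transcript IDs that matched with their version, so a transcript with more reads may have been left out. A low value, such as the 0 reads of NDUFA6 and of NDUFS3 in both libraries, thus need not mean that the gene was silent. Of 75 genes for subunits of complexes I, III, IV and V, 71 were above 1 RPKM, 63 had a ratio above 1 and 8 below, and the median was 1.12, against 1.01 for the members and 1.19 for all transcripts. Only UQCRC2, a core subunit of complex III, was called higher, at 4 and 59 reads in the transcript used, and 0 were called lower. NDUFS1 had the highest ratio of the complex I list, 3.63 (2.62 to 5.10), at 50 and 154 reads. With 0.323 and 1.17 RPKM it was not called. Among all transcripts above 1 RPKM in at least 1 library, 1.98% were called in either direction and 78.9% had a ratio above 1. The counts of the nuclear partners are thus not particular to them. The median was 1.10 over 34 genes of complex I, from NDUFAB1 (0.811) to NDUFB1 (1.38) among genes above 10 RPKM in a library, and 1.20 over 9 genes of complex III, from UQCR11 (1.06) to UQCR10 (1.38). It was 1.12 over 11 genes of complex IV, from COX7B (1.05) to COX6C (1.26), and 1.13 over 17 genes of the ATP synthase, from ATP5PD (0.832) to ATP5ME (1.40). The nuclear transcripts of complex IV had a median of 29.6 RPKM in untreated cells and a highest value of 178 RPKM. The 3 mitochondrial mRNAs of that complex had 4144 to 5063 RPKM. The transcript of most reads need not have the highest RPKM of its gene, so the nuclear values can be underestimates.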

How the data were processed

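RNA-seq of SH-SY5Y cells after rRNA depletion was used, with 1 untreated and 1 AS library. According to the study's methods, the authors used fastp for trimming, HISAT2 (version 2.1.0 per the labels) for alignment to GRCh38.p13, and StringTie for quantifying transcripts of GENCODE release 41. The deposited columns are headed TPM but sum to 1039719 and 1216810. Each value times transcript length is a whole multiple of the same step, so the deposited values were treated as RPKM. The deposited values thus differ from the StringTie TPM that the study's methods describe. How they were made is not given in the sources used here. Whole reads (within 0.01) were recovered for all 141239 untreated and all but 1 of 143944 AS values of transcripts with a length. Lengths and coordinates came from GENCODE release 44 (88.5% of transcript IDs matched with their version). The denominators were 13291958 (untreated) and 11281587 reads (AS), and reads in overlapping transcripts were counted repeatedly. Overlapping genes and near-identical copies can exchange reads.

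The computations ran in Python 3.11.15 with scipy 1.17.1, pandas 2.3.3 and numpy 2.4.6, and plots were drawn with matplotlib 3.10.9. Nuclear copies, those on chromosome 8 left out, were aligned with edlib. The pseudocount was 1 RPKM. Tested on simulated libraries of 227363 transcripts with Poisson noise only, the recovery returned the reads of 100% of transcripts. The call rule was tried on the 40995 of them with at least 200 reads in both real libraries together. It found 190 of 200 transcripts changed by 4-fold and called 0 unchanged. This trial does not cover transcripts with fewer reads or the spread between cultures. The members and lists were chosen with earlier results of these data known. The genes named are the 10 members, the other RNAs of mitochondrial DNA, copies above 1 RPKM or on the chromosome 1 stretch and, per list, the extremes above 10 RPKM in a library. UQCRC2 and NDUFS1 were named after their values were seen. eCLIP, knockdown, Total and SG values were not analysed here, so the planned limma tests and the search for genes of like profile were not run. One cell type marker is not reported here.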

Additional observations from a re-analysis of the deposited data

How the results depend on the processing

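No member was called changed under a pseudocount of 0.1, fold thresholds of 4 and 0.25 or of 1.5 and its inverse, no filter on low values, or any of 4 scalings. The share of transcripts called was computed only for the main rule, at 1.98% of those above 1 RPKM. A count of 0 of 10 is thus not particular to the members. The number of members with an AS to untreated ratio above 1 was 5 as deposited and with the reads of nuclear copies added, 2 with the median ratio of transcripts set to 1, and 3 with the same total outside mitochondrial DNA, with the same RPKM total or with the same sum of reads over transcripts. The last 2 scalings, the copies and the scaling to transcripts with at least 1000 reads were chosen after the data were seen. All 40 member ratios under the 4 scalings moved beyond their counting intervals, since each scaling multiplies all of them by the same factor, and 1 of 10 did so with copies added, that of MT-ATP6. No paired analysis was possible because the rRNA-depleted data have 1 library per condition, and leaving out a replicate was not possible for the same reason. The alternatives planned for eCLIP, the knockdowns and SG were not run.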

Other observations

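Genes for the expression of mitochondrial DNA, which are nuclear, mostly had AS to untreated ratios above 1 on the deposited scale. Of 14 genes for its transcription and replication, all above 1 RPKM, 12 had an AS to untreated ratio above 1 and 2 below, with a median of 1.37 and 0 called higher or lower. POLRMT, the mitochondrial RNA polymerase, was at 4.21 and 5.62 RPKM (ratio 1.33, 95% interval 1.10 to 1.61, 211 and 239 reads), and TFAM, which packages mitochondrial DNA and starts its transcription, at 4.52 and 6.79 RPKM (1.502, 1.29 to 1.75).

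Of 21 genes for processing and stability of mitochondrial RNA, 21 had a ratio above 1, with a median of 1.299 and 0 called. LRPPRC, which together with SLIRP stabilises mitochondrial mRNAs, was at 21.0 and 26.6 RPKM (1.26, 1.18 to 1.35), SLIRP at 52.4 and 60.4 RPKM (1.15, 0.965 to 1.37), and TRMT10C, a subunit of the enzyme that cuts the 5′ ends of mitochondrial tRNAs, at 8.67 and 14.8 RPKM (1.70, 1.42 to 2.04). The median of all transcripts above 1 RPKM was 1.19, and 78.9% of those above 1 RPKM in at least 1 library had a ratio above 1. POLRMT, TFAM and LRPPRC were named after their values were seen.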
